A study of Homo sapiens with 12 samples.

Results

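The direct contrast between the 2 stromal co-cultures under cytarabine was examined in cells labelled Reh, an established line of human B-cell precursor acute lymphoblastic leukemia. Its members were the 3 arrays titled for Ara-C with HS5 and the 3 arrays titled for Ara-C with HS, which are 6 of the 12 arrays of the study. Both groups received Ara-C (cytarabine) for 48 h and shared every other labelled condition, so they differed by the stroma alone as far as the labels go. HS-5, written HS5 in the titles, is an immortalised line of human marrow stroma. Of HS the labels say only that these are human stromal cells. Sources used here give no Ara-C dose. The other 6 arrays, 3 of untreated Reh cells and 3 of Reh cells with Ara-C and no stroma, serve only to place the levels of both stromal groups. Stroma was never tested in the absence of the drug. The labels call the triplicates independent and do not say whether they came from separate cultures, so p-values measure the spread between these samples, which may be technical. Genes were measured on Illumina HumanHT-12 v3 beadchips, and levels are given as normalized log2 intensities.

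Cytarabine is a nucleoside analogue that blocks DNA synthesis once kinases in the cell have phosphorylated it, and the stalled replication forks activate the p53 and checkpoint responses. Bone marrow stroma is known to alter how leukemia cells respond to such drugs, through adhesion, cytokines and metabolites. Type I interferon signalling, which turns on antiviral genes through a complex that holds STAT2 and IRF9, and the B-lineage programme of pre-B cells, with its recombinases and surrogate light chain, are both readable at the RNA level in such cells.

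The groups were far apart. Of 11166 genes tested, 4826 were called at an adjusted p under 0.05 with limma (43.2%), 2333 of them higher with HS5 (20.9%) and 2493 lower (22.3%). A fitted difference of at least 2-fold was found for 640 genes (5.73%), 346 higher with HS5 (3.1%) and 294 lower (2.63%). These counts include genes undetected in 1 group, and for some of those the bound was under 2-fold. The 3 HS5 arrays did not overlap the 3 HS arrays for 5764 genes (51.6%). Most differences were small: 13.3% of the called genes reached 2-fold, the median absolute difference over all genes was 0.27 on the log2 scale, and the median signed difference was -0.0088. Correlations across genes, given as a description, were 0.992 to 0.993 among the HS arrays and 0.993 among the HS5 arrays, and 0.962 to 0.967 between the groups. The HS5 arrays correlated at 0.991 to 0.992 with those of Ara-C without stroma. Between 13064 and 14898 probes were detected per array. The 12 arrays shared 1 chip, where the 3 of a group sat next to each other, and position cannot be told apart from group.

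**Figure D1:**
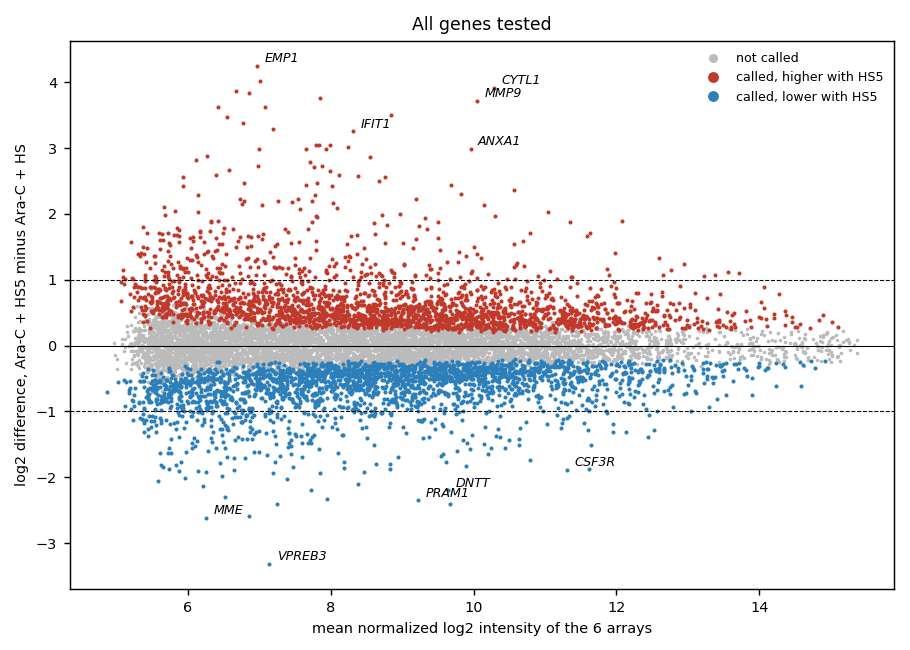
Each point is a gene, with the mean normalized log2 intensity of the 6 arrays on the x axis and the log2 difference of Ara-C with HS5 minus Ara-C with HS on the y axis. Coloured points were called, dashed lines mark 2-fold, and fitted differences run from -3.31 for VPREB3 to 4.25 for EMP1, each undetected in 1 group.

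The labelled cell type was checked against its markers first. Of 29 B-lineage precursor markers with a probe, 18 were detected on all 3 HS arrays and 15 on all 3 HS5 arrays, among them CD79A, DNTT and RAG1. PAX5, CD22, MS4A1, CD34 and VPREB1 were among the 9 that no array of the 12 detected. Granulocyte precursor markers were as widely detected, 17 of 24 on all 3 HS arrays and 16 on all 3 HS5 arrays. Their levels were higher as sums: the 19 tested gave 60624 to 67375 with HS and 57410 to 58601 with HS5, on the linear scale. The 19 tested B-lineage genes summed to 9998 to 10323 and 4832 to 5258. Probes of different genes differ in brightness, so these sums do not rank the lists. MPO, the myeloperoxidase gene of granulocyte precursors, made up a large part of the granulocyte sums. It was bright in both groups, at a mean level of 15.04 ± 0.05 with HS and 14.80 ± 0.08 with HS5 (SD, n = 3 each). The levels thus hold transcripts of both lineages in both groups, as they did in untreated cells, where MPO lay at 15.40, 15.16 and 15.38. Whether the cells are Reh was not tested here, and the B-lineage and myeloid values below are those of cells so labelled.

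RNA of the stromal cells themselves was looked for with 48 fibroblast markers. Of these, 28 were detected on none of the 12 arrays, including COL1A1, COL1A2, COL3A1, FN1, LUM, DCN, THY1 and VCAM1, and 0 were detected on all 3 arrays of a stromal group and on none without stroma. Weak signs of such a pattern came from COL6A1, detected on 2 of 3 arrays of each stromal group, COL5A2, on 1 of 3 of each, and ENG, on 1 of 3 HS arrays, all 3 undetected without stroma. Markers of other cells showed it too. The megakaryocyte gene ITGA2B was detected on 3 HS arrays and 1 HS5 array, and the erythroid gene GATA1 on 2 of each. Both were undetected without stroma. Of the 18 tested, 7 were higher with HS5, 3 were lower and 8 did not pass, with a median of 0.26. The share called was 55.6%, beside 43.2% over all genes. Among these calls, those of ITGB5 (higher) and PDGFRB (lower) were lost in 9 and 5 of 14 alternative runs. S100A4, a calcium-binding protein of motile cells, was higher by 1.41 (2.65-fold), and CDH2, the N-cadherin gene, was lower by 1.62 on the log2 scale. CDH2 was also detected in untreated cells, at 7.66, 7.63 and 7.62. The summed linear level of the 18 genes was 16815 to 18224 on the HS arrays and 28496 to 29662 on the HS5 arrays, beside 29317 to 30484 with Ara-C alone and 14159 to 15962 in untreated cells. This sum did not overlap between the stromal groups (exact permutation test over arrays, 2-sided p = 0.1, the smallest that 3 against 3 allows), and its part in the results below was not tested. Of 21 stroma-secreted cytokines and growth factors, 17 were detected on no array, IL6, LIF, CSF3, CXCL12 and KITLG among them. In bulk samples such as these, fewer cells of a type and less RNA per cell cannot be told apart.

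Genes of the type I interferon response were higher with HS5 in 45 of 51 measured members, 2 were lower and 4 did not pass, with a median of 1.54 beside -0.0088 over all genes. The fitted difference was at least 2-fold for 35 of them. These include IFIT5, IFI44L and IFITM3, undetected with HS, whose bounds were only 1.77-fold, 1.45-fold and 1.38-fold. IFIT1, an antiviral protein that binds foreign RNA, IFI27, ISG15, a ubiquitin-like modifier, the 2',5'-oligoadenylate synthases OAS2 and OAS3, and CXCL10, a chemokine that draws T cells, had the largest values. Upstream regulators were among those higher: IRF9 by 1.93, IRF7 by 1.55 and the RNA sensor gene DDX58 by 2.07. The exceptions were MX1, an antiviral GTPase, at -0.01 (adjusted p = 0.942), and MX2 and IRF1, which were lower by 0.28 and 0.32, though 9 of 14 alternatives did not keep the call of MX2. TRIM21, TRIM5 and IFITM2 did not pass, at 0.33, 0.29 and 0.18.

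The promoters of 4 of these genes are shown because they hold the short element through which that complex of STAT2 and IRF9 is known to act, and because MX1 holds it too while its difference did not pass the test. The sequences are RefSeq's (GRCh38.p14), 250 bases before to 50 after the gene start, 5′ to 3′ on the gene's strand, and capitals mark each match to the interferon-stimulated response element, searched as GAAA, any 2 bases and GAAA on both strands with overlapping matches counted.
IFIT1 (chr10:89392373-89392672, plus strand): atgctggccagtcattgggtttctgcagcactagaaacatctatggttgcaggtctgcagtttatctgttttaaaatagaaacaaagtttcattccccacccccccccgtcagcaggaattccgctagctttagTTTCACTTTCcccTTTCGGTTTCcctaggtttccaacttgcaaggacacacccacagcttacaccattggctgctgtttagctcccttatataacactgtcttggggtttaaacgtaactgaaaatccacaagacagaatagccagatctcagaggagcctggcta
ISG15 (chr1:1013247-1013546, plus strand): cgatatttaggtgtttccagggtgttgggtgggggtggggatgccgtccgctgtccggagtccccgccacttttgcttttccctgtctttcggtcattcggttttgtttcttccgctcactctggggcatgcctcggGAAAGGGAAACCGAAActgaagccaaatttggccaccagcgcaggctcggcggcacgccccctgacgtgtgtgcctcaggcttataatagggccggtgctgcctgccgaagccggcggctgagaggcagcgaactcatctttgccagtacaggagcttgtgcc
CXCL10 (chr4:76023448-76023747, minus strand): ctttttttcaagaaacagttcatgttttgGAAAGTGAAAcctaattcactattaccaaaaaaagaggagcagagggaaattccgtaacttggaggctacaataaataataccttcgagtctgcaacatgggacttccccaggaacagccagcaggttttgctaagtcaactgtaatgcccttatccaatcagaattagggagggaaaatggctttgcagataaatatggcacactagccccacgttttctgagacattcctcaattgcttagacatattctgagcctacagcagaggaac
MX1 (chr21:41420308-41420607, plus strand): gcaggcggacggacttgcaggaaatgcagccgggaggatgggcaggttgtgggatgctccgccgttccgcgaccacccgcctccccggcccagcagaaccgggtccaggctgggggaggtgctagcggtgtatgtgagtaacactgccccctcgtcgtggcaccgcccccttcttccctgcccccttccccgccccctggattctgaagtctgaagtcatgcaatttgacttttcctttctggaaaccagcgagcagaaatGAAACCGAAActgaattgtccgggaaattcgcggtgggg
IFIT1 held 2 matches, ISG15 held 2 that overlap, and CXCL10 and MX1 held 1 each. The match of MX1 lay after the gene start, at bases 12 to 21, while those of IFIT1, ISG15 and CXCL10 lay before it. Of 41 interferon genes with a promoter in the table, 26 held a match (63.4%), against 3.65% of all 27305 promoters and 2.95% of the 8172 promoters of tested genes. Among genes at least 2-fold higher with HS5 by the fit the share was 31 of 250 (12.4%). Those 31 include many interferon genes already counted, such as IFIT1, ISG15 and CXCL10, so this is no separate observation. Among genes at least 2-fold lower it was 4 of 203 (1.97%). IFI16, OAS1, DDX58, IRF9 and RSAD2 were higher with HS5 and held no match in this window. A match here is a description of the letters only.

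On single arrays, IFIT1 lay at 6.78, 6.71 and 6.57 with HS and at 10.12, 9.85 and 9.86 with HS5. The groups were 9.57-fold apart (log2 difference 3.26, SE 0.12, adjusted p = 6.18e-10), with no overlap. ISG15 lay at 7.62, 6.67 and 7.09 with HS and at 10.11, 9.64 and 10.22 with HS5, a 7.26-fold difference (2.86, SE 0.22). The HS arrays were more spread for this gene, and the lowest HS5 array was still well above the highest HS array. OAS2 was at 6.37, 6.13 and 6.32 with HS and at 9.56, 9.08 and 9.31 with HS5 (8.25-fold), and OAS3 differed 8.28-fold. CXCL10 was detected on none of the 3 HS arrays and lay at 9.09, 8.82 and 9.15 with HS5, which is at least 10.7-fold higher. IFI27, likewise undetected with HS, was at least 6.23-fold higher. EPSTI1 was 6.53-fold higher, from 6.23, 6.60 and 6.42 to 9.28, 9.20 and 8.89. IFI16, a DNA sensor, was 4.92-fold higher, and AIM2, another sensor of cytosolic DNA that was outside the list, was at least 6.46-fold higher and undetected with HS. The genes given by array were picked for large differences or small adjusted p-values. Over the whole list the groups did not overlap for 49 of 51 genes, beside 51.6% of all genes.

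**Figure D2:**
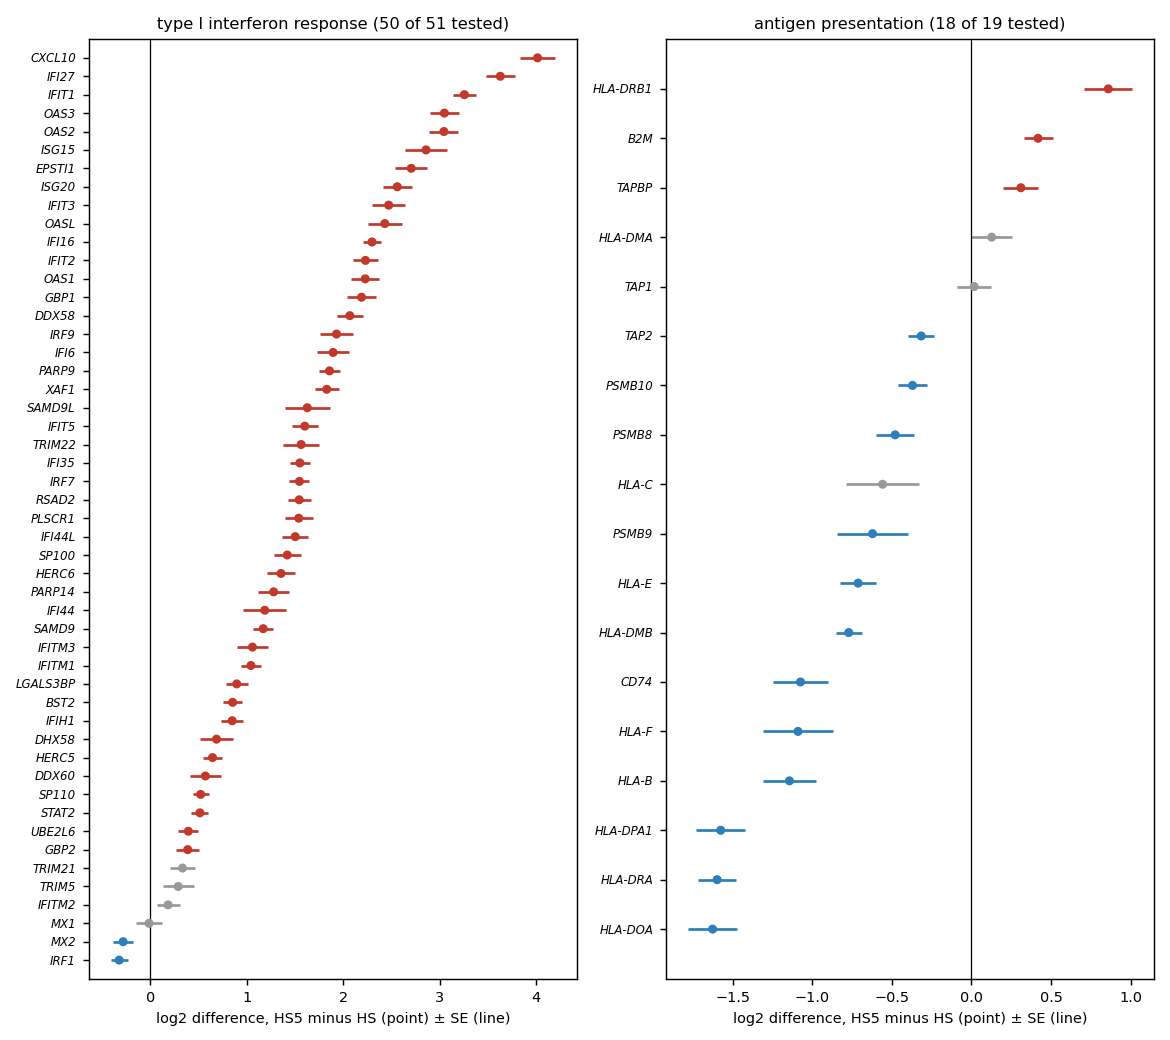
Log2 difference of Ara-C with HS5 minus Ara-C with HS (points, with SE as lines) for 50 of the 51 tested interferon genes and 18 of the 19 tested antigen presentation genes, red where called higher, blue where called lower and grey where not called. Of the interferon genes drawn 44 are red, while 12 of the antigen presentation genes drawn are blue.

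Genes of antigen presentation, many of which interferon is also known to induce, did not go the same way. Of 19 measured, 13 were lower with HS5, 3 were higher and 3 did not pass, with a median of -0.62. HLA-B, a class I heavy chain, lay at 9.84, 9.83 and 9.87 with HS and at 8.81, 8.66 and 8.64 with HS5. That is 2.21-fold lower (log2 difference -1.14, SE 0.17, adjusted p = 0.000122), and no arrays overlap. HLA-F and HLA-E were lower by 1.09 and 0.71, while B2M, the light chain that pairs with each of them, was higher by 0.42. Among class II genes HLA-DRA, the alpha chain of HLA-DR, lay at 10.55, 10.73 and 10.44 with HS and at 9.17, 8.97 and 8.79 with HS5 (3.03-fold lower), HLA-DPA1 was 2.98-fold lower and the invariant chain gene CD74 was lower by 1.07. HLA-DOA, detected on no HS5 array, was at least 1.73-fold lower. HLA-DRB1, undetected with HS, was at least 1.43-fold higher. Peptide supply was mixed: the immunoproteasome genes PSMB8, PSMB9 and PSMB10 were lower by 0.48, 0.62 and 0.37, TAP2 was lower by 0.32, TAPBP was higher by 0.31 and TAP1 was at 0.02. The calls of TAPBP and PSMB9 were lost in 9 and 6 of 14 alternatives. Of 16 of these genes with a promoter in the table, 6 held the response element of the interferon genes (37.5%), B2M, TAP1 and TAPBP with 2 matches each. HLA genes are near copies of each other and vary between people, so a probe may read more than its named gene, and these values are uncertain to that extent.

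Markers of B-lineage precursors were lower with HS5 in 15 of 19 measured members, 0 were higher and 4 did not pass, with a median of -1.06. VPREB3, a pre-B cell gene of the surrogate light chain assembly, had the largest fitted difference of all genes lower with HS5. Its levels were 8.74, 8.73 and 8.93 with HS and it was detected on no HS5 array, so it was at least 8.28-fold lower (adjusted p = 2.39e-09). MME, the gene of CD10, a surface peptidase of early B cells, was detected on all 3 HS arrays at 7.53, 7.53 and 7.63 and on no HS5 array, at least 3.52-fold lower. Both genes were detected in untreated cells.

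Enzymes of antigen receptor assembly were among the lower genes. DNTT, the terminal transferase that adds nucleotides at receptor joins, lay at 10.78, 10.67 and 10.79 with HS and at 8.45, 8.62 and 8.57 with HS5, 4.59-fold lower (log2 difference -2.20, SE 0.10, adjusted p = 4.72e-09). RAG1, of the recombinase, lay at 8.33, 8.06 and 8.09 with HS and at 6.15, 6.15 and 6.37 with HS5, 3.82-fold lower. The groups do not overlap for either gene. LEF1, a transcription factor of lymphoid precursors and of Wnt signalling, lay at 8.89, 8.72 and 8.84 with HS and at 7.02, 6.84 and 6.78 with HS5, also 3.82-fold lower. The surface enzyme gene CD38 was 3.66-fold lower, from 9.79, 9.79 and 9.73 to 8.03, 7.84 and 7.83. IL7R, the receptor chain for interleukin 7, was 2.08-fold lower. EBF1, a transcription factor of early B cells, was undetected with HS5 and at least 2.16-fold lower. CD37 (-1.35), CD24 (-1.26), IGLL1 (-1.02), CD79A (-0.86) and TCF3 (-0.55) were lower as well. CD79B (-0.06), CD72 (-0.07), SOX4 (-0.01) and CD9 (0.23) did not pass. The summed linear level of the 19 genes was 9998 to 10323 with HS and 4832 to 5258 with HS5, beside 5866 to 6178 with Ara-C alone and 9067 to 9552 in untreated cells (exact permutation test of HS5 against HS, 2-sided p = 0.1, the smallest possible).

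**Figure D3:**
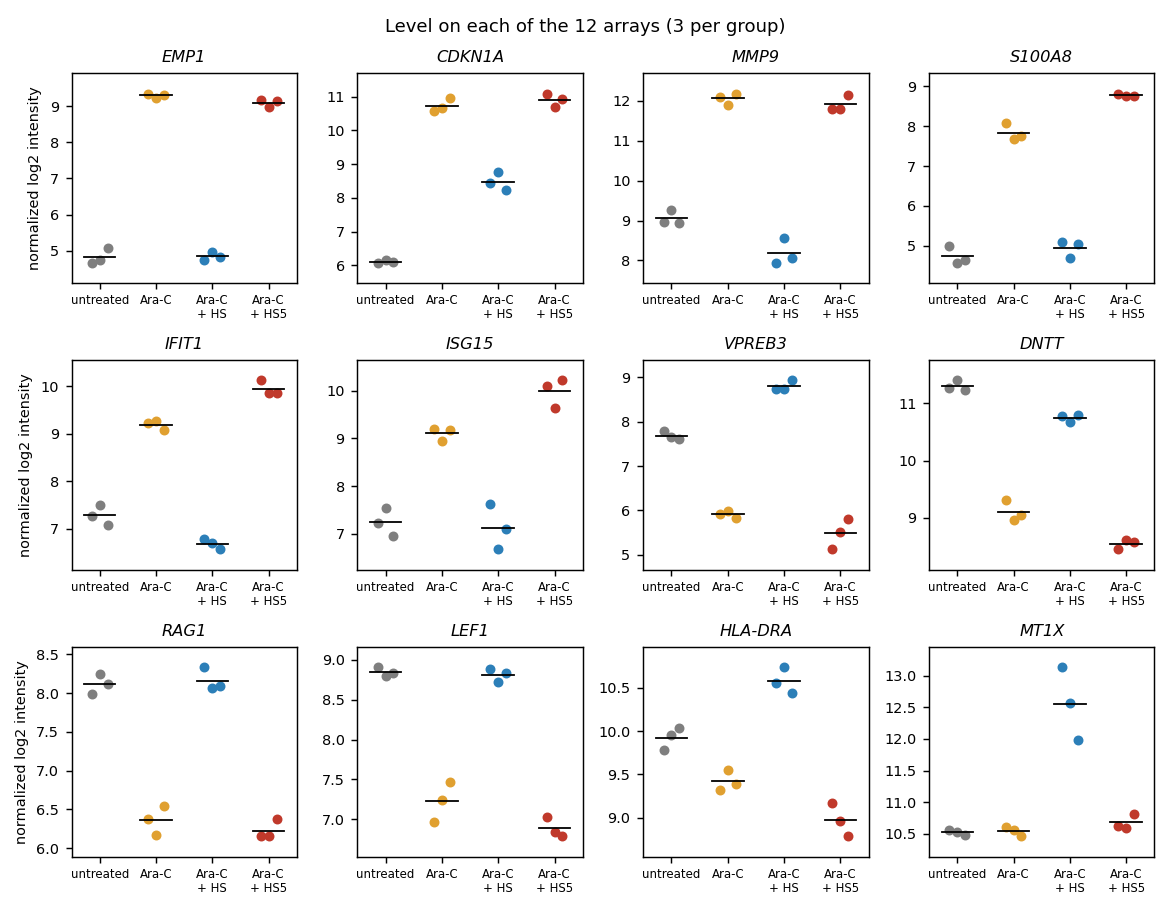
Normalized log2 intensity of 12 genes on each of the 12 arrays, 3 points per group with the group mean as a line, on an axis set for each gene. IFIT1 and CDKN1A lie higher with HS5 than with HS on every array, and VPREB3, DNTT, RAG1, LEF1 and HLA-DRA lie lower.

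Of 19 granulocyte precursor markers measured, 11 were lower with HS5, 5 were higher and 3 did not pass, with a median of -0.44. CSF3R, the receptor for granulocyte colony-stimulating factor, lay at 12.25, 12.22 and 12.29 with HS and at 10.36, 10.47 and 10.25 with HS5, 3.71-fold lower (log2 difference -1.89, SE 0.12). PRTN3, the proteinase 3 gene, lay at 10.45, 10.77 and 10.27 with HS and at 8.79, 8.70 and 8.71 with HS5, 3.40-fold lower. Neither gene's groups overlap. The defensin gene DEFA4 was detected on no HS5 array and was at least 2.11-fold lower, SERPINB1, an inhibitor of neutrophil proteases, was 2.28-fold lower, and AZU1 and the transcription factor gene CEBPE were lower by 0.85 and 1.26. MPO was lower by 0.24 (adjusted p = 0.0465), a call that 10 of the alternatives run did not keep. Those higher were CAMP, the cathelicidin gene of later granules, the ribonuclease genes RNASE2 and RNASE3 of eosinophil granules, the cathepsin G gene CTSG and MS4A3. CAMP lay at 5.67, 5.43 and 5.54 with HS, where 1 of 3 arrays detected it, and at 8.85, 8.85 and 8.83 with HS5 (log2 difference 3.29, SE 0.10, adjusted p = 1.62e-10). RNASE2 was 3.67-fold and RNASE3 3.18-fold higher. CTSG and MS4A3 were higher by 0.36 and 0.48, and the elastase gene ELA2 did not pass, at -0.14.

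Of 13 macrophage and monocyte markers, 7 were higher with HS5, 2 were lower and 4 did not pass, with a median of 1.10, or 0.58 with undetected levels set at their bound. S100A8 and S100A9 form calprotectin, a calcium-binding pair of monocytes and neutrophils. S100A8 was detected on no HS array and lay at 8.82, 8.77 and 8.76 with HS5, at least 9.11-fold higher. S100A9 lay at 6.24, 6.89 and 6.20 with HS and at 9.68, 9.41 and 9.23 with HS5, 7.97-fold higher. Both were apart on every array. CD86, a costimulatory ligand for T cells, was undetected with HS and at least 9.84-fold higher, and a second probe gave 1.51 beside 3.63. LYZ, the lysozyme gene, was 3.52-fold higher, and CD14 was higher by 1.88. ITGAX and MS4A7 were lower, 2.80-fold and 2.29-fold, and a second probe of MS4A7 gave -0.63 beside -1.20. CSF1R (0.21), CD68 (0.14), ITGAM (0.29) and FCGR1A (0.34) did not pass.

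Of 8 T and NK cell markers measured, 5 were higher with HS5, 1 was lower and 2 did not pass, with a median of 0.47. GZMA, a granzyme protease of cytotoxic lymphocytes, was undetected with HS and lay at 8.63, 8.61 and 8.58 with HS5, at least 8.04-fold higher. NKG7, of cytotoxic granules, was higher by 1.59, CD8A by 1.17 and PRF1 by 0.53. IL7R, shared with the B-lineage list, was the lower member. Of 21 markers with a probe, 11 were detected on none of the 12 arrays. Among markers of other cells, 1 of 3 endothelial genes was lower (TIE1, -0.40) and 1 of 2 erythroid genes was lower (EPOR, -0.77). Megakaryocyte genes had 1 of 3 lower (ITGA2B, -1.07). Of 4 adipocyte genes LPL was higher by 0.97, CEBPA was lower by 0.44, and PPARG and LEP did not pass. Of 3 osteoblast genes SPP1 was higher, RUNX2 was lower by 0.83 and BGLAP did not pass. These last lists are short, and 43.2% of all genes were called.

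The largest differences overall included genes outside these groups. EMP1, a membrane protein gene, was undetected with HS and lay at 9.17, 8.97 and 9.16 with HS5, at least 11.3-fold higher (adjusted p = 5.75e-11). CYTL1, a small secreted protein gene of blood progenitors, lay at 8.26, 8.12 and 8.60 with HS and at 12.31, 12.22 and 12.19 with HS5, 15.1-fold higher (log2 difference 3.91, SE 0.12). MMP9, a gelatin-degrading matrix protease, lay at 7.95, 8.57 and 8.06 with HS and at 11.80, 11.79 and 12.15 with HS5, 13.2-fold higher. In each the HS5 arrays were several log2 units above the HS arrays. CYP1B1, a cytochrome P450 that the aryl hydrocarbon receptor is known to induce, was 11.3-fold higher, and ANXA1, a phospholipid-binding regulator of inflammation, was 7.95-fold higher. ASGR2 was 13.6-fold higher, with 2 of 3 HS arrays detecting it. The secreted phosphoprotein gene SPP1 was at least 7.35-fold and the protease inhibitor gene SLPI at least 4.32-fold higher, both undetected with HS. KRT86, the interleukin receptor genes IL18RAP and IL20RB, and TCN1, a vitamin B12 binder, were 8.29-fold, 8.08-fold, 7.91-fold and 6.01-fold higher. FCGBP (2.99) was detected on 1 of 3 HS arrays. KRT86 belongs to a family of near copies, and its value is uncertain to that extent.

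On the lower side, PRAM1, an adaptor gene of myeloid cells, lay at 10.32, 10.47 and 10.43 with HS and at 8.08, 8.04 and 8.03 with HS5, 5.11-fold lower (log2 difference -2.35, SE 0.09). SLC2A5, the fructose transporter gene, lay at 10.89, 11.04 and 10.72 with HS and at 8.50, 8.51 and 8.40 with HS5, 5.32-fold lower. DHRS3 and DHRS9, which reduce or oxidise retinoids, were 5.33-fold and 4.32-fold lower. The HS arrays were the higher ones for all 4 genes without overlap. MTL5 was 5.06-fold, the oxoprolinase gene OPLAH 4.10-fold, FAM116B 3.65-fold and SYTL1 3.60-fold lower. HAL, of histidine breakdown, GPR97, RENBP and the actin bundler gene PLS3 were undetected with HS5 and at least 3.79-fold, 3.29-fold, 2.54-fold and 1.83-fold lower. MACROD1 (-1.93) and PPP1R1B (-2.59) were detected on 1 of 3 HS5 arrays, and a second probe of PPP1R1B gave -0.04 (adjusted p = 0.941).

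**Figure D4:**
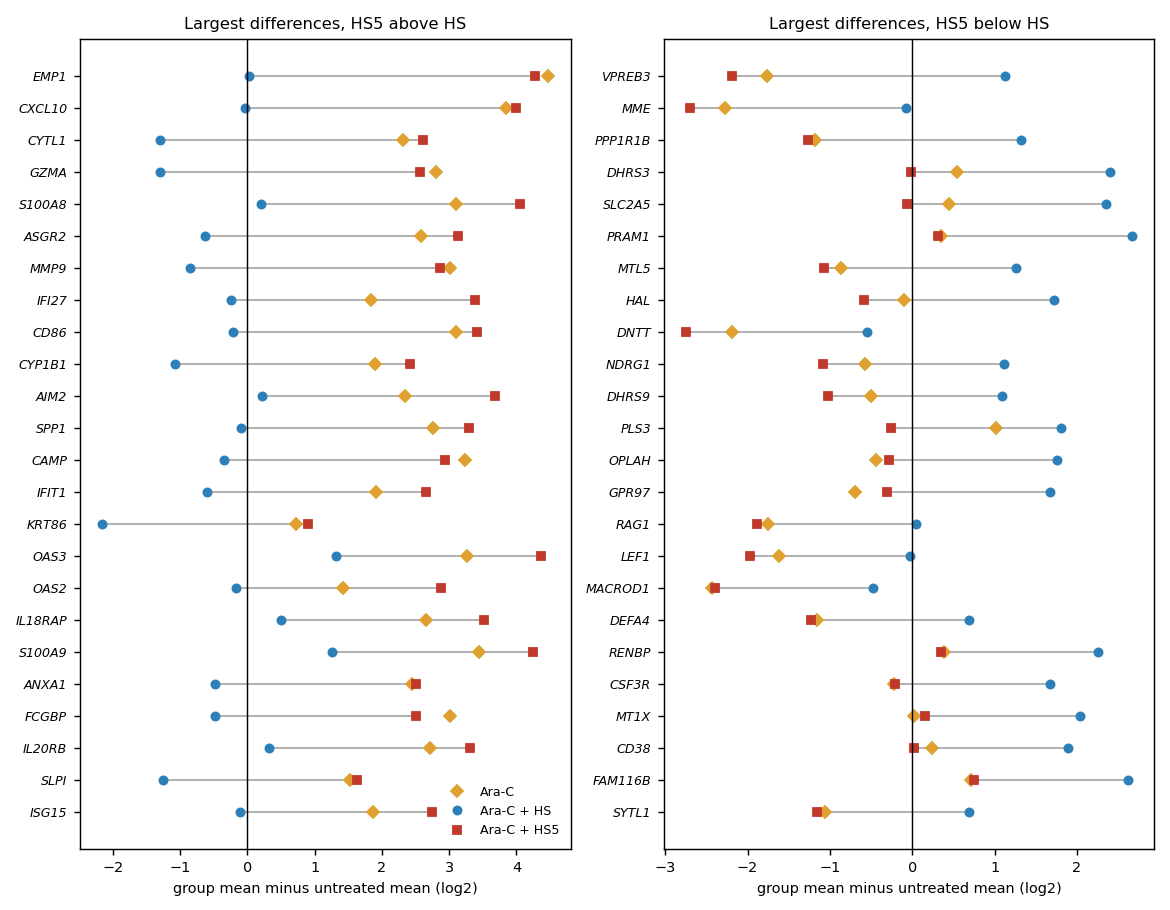
Mean of Ara-C, Ara-C with HS and Ara-C with HS5 minus the untreated mean (log2, x axis) for 24 of the 25 genes with the largest difference in each direction, with a line joining HS and HS5. EMP1, CXCL10 and CYTL1 have their HS5 mean near the Ara-C mean, while HS lies near or below 0, and VPREB3, PRAM1 and CSF3R have their HS mean to the right of the other groups.

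Targets of p53 were higher with HS5 in 10 of 22 measured members, 1 was lower and 11 did not pass, with a median of 0.21. Calls in either direction made up 50%, beside 43.2% over all genes. CDKN1A, the inhibitor of cyclin-dependent kinases that p53 induces, lay at 8.43, 8.76 and 8.23 with HS and at 11.09, 10.70 and 10.93 with HS5, 5.40-fold higher (log2 difference 2.43, SE 0.14, adjusted p = 4.77e-08). Every HS5 array lay above every HS array by more than the spread within either group. BTG2 was detected on 2 of 3 HS5 arrays and no HS array (at least 1.38-fold), and PMAIP1, a BH3-only killer, was 1.94-fold higher. The death receptor gene TNFRSF10B lay at 8.92, 9.07 and 9.03 with HS and at 10.17, 9.90 and 9.96 with HS5. CCNG1 was lower by 0.68, with a second probe at -0.29 (adjusted p = 0.349). BAX (0.07), SESN1 (0.20), GADD45A (-0.26) and ZMAT3 (-0.21) did not pass. Of 41 DNA damage and repair genes 6 were higher, 6 were lower and 29 did not pass. With 29.3% called, this list lay under the 43.2% over all genes. CLSPN, a fork checkpoint adaptor, was higher by 0.85 and the exonuclease gene EXO1 by 0.49, while the helicase genes ERCC2 and WRN were lower by 0.80 and 0.72. ERCC1 was lower by 0.74, and the dimmest of its probes gave -0.03 (adjusted p = 0.865).

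Among 35 regulators of apoptosis, 12 were higher with HS5, 3 were lower and 20 did not pass. Called members thus made up 42.9%, beside 43.2% over all genes. TNFSF10, the death ligand TRAIL, which interferon also induces, lay at 7.40, 7.59 and 7.61 with HS and at 9.34, 9.09 and 9.20 with HS5, 3.20-fold higher. The caspase genes CASP6 and CASP1 were 2.15-fold and 1.81-fold higher. BCL2, the anti-apoptotic founder of its family, lay at 9.91, 9.69 and 9.75 with HS and at 9.06, 9.23 and 8.76 with HS5, 1.71-fold lower. Its groups do not overlap. MCL1 was at 0.24 (adjusted p = 0.130), with a second probe at 0.60 (adjusted p = 0.00604). The survivin gene BIRC5 was 1.39-fold higher, and its second probe gave 0.38 (adjusted p = 0.0936).

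Genes that handle cytarabine itself showed no common direction: 5 of 21 were higher with HS5, 5 were lower and 11 did not pass, with a median of 0.03. Their called share of 47.6% was near the 43.2% over all genes. DCK, the kinase that activates the drug, lay at 10.63, 10.64 and 10.65 with HS and at 10.71, 10.27 and 10.48 with HS5. These arrays overlap, and the difference was -0.16 (adjusted p = 0.277), or 0.09 by a second probe (adjusted p = 0.563). CDA, the deaminase that inactivates it, lay at 6.24, 6.66 and 5.61 with HS, where 2 of 3 arrays detected it, and at 7.62, 7.71 and 7.19 with HS5, 2.53-fold higher (adjusted p = 0.000298). The HS arrays were the more spread, and still below every HS5 array. UPP1, of uridine breakdown, was 2.09-fold higher, the transporter genes SLC29A1 and SLC29A2 were lower by 0.49 and 0.39, and the nucleotidase gene NT5C was 1.79-fold lower. Neither probe of the efflux pump gene ABCB1 was detected on any array.

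DNA replication genes were higher with HS5 in 18 of 47 measured members, 6 were lower and 23 did not pass, with a median of 0.15. Calls in either direction made up 51.1%, beside 43.2% over all genes. The cyclin genes CCNE2 and CCNE1, of entry into S phase, were 1.93-fold and 1.70-fold higher, the helicase gene MCM5 1.80-fold, the thymidine kinase gene TK1 1.69-fold and RRM2, a ribonucleotide reductase subunit, 1.44-fold. ORC2L, of the origin recognition complex, was 1.52-fold lower. For CCNE2 the levels were 10.51, 10.50 and 10.33 with HS and 11.48, 11.41 and 11.31 with HS5, without overlap. Mitotic genes mostly did not pass, 36 of 51, with 9 higher and 6 lower. Their called share, 29.4%, was under that over all genes. UBE2C, a ubiquitin-conjugating enzyme of anaphase, was the farthest, at 7.83, 7.86 and 7.59 with HS and 6.65, 6.29 and 6.32 with HS5 (2.52-fold lower). Of 12 replication-dependent histone genes 7 were higher and 1 was lower, or 66.7% called beside 43.2% over all genes. Their median was 0.54, or 0.30 with undetected levels set at their bound. Among those higher, HIST1H2AC, HIST1H4B and HIST1H4K were undetected with HS, and HIST2H4A lost its call in 7 of 13 alternatives. Over the alternatives other than leaving out an array, 4 to 10 members were higher. HIST1H2BK was 1.86-fold higher and HIST1H4C 1.41-fold lower, and these genes too are near copies of each other. CCND1 did not differ beyond its spread, at 9.93, 10.12 and 9.83 with HS and 9.71, 10.04 and 9.83 with HS5 (log2 difference -0.10, SE 0.12, adjusted p = 0.541).

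Of 24 NF-kB targets and regulators 13 were higher, 1 was lower and 10 did not pass, with a median of 0.53. The neutrophil chemokine gene IL8 lay at 9.25, 9.80 and 8.89 with HS and at 11.21, 11.33 and 11.32 with HS5, 3.93-fold higher. CCL3, undetected with HS, was at least 2.71-fold higher, and CCL2, TNF and LTA were 3.12-fold, 2.57-fold and 2.33-fold higher. None of these chemokine and cytokine genes, picked for a small adjusted p, had an HS array as high as an HS5 array. Over the list, 15 of 24 genes did not overlap, beside 51.6% of all genes. The subunit genes did not follow: NFKB1 (0.15), NFKB2 (0.15) and REL (0.17) did not pass, and RELA was lower by 0.24, a call lost in 8 of 14 alternatives. IL1B was detected in both stromal groups at a difference of -0.01 (adjusted p = 0.978).

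Immediate early genes were higher in 12 of 23, lower in 5 and not called in 6, with a median of 0.41, and the members at each end were far apart. KLF4, a zinc finger factor of monocytes and epithelia, was undetected with HS and at least 2.70-fold higher. ATF3, JUN and the phosphatase gene DUSP5 were 2.79-fold, 2.49-fold and 2.23-fold higher. EGR1, induced by growth factor signals, lay at 10.19, 10.73 and 10.28 with HS and at 8.88, 8.51 and 8.84 with HS5, 3.15-fold lower. MYC lay at 12.29, 12.36 and 12.49 with HS and at 11.15, 11.53 and 11.37 with HS5, 2.04-fold lower (adjusted p = 9.24e-06). The groups do not overlap for EGR1 or MYC. Of 19 STAT3 and STAT5 genes 5 were higher and 4 were lower, or 47.4% called beside 43.2% over all genes. PIM1, a survival kinase, was 2.07-fold higher, and SOCS1, a feedback inhibitor that 1 of 3 HS arrays detected, 2.37-fold. SOCS2 was 1.52-fold lower, and STAT5A and STAT5B themselves were 1.77-fold and 2.07-fold lower.

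Of 30 metal and oxidative stress genes measured, 15 were higher with HS5, 8 were lower and 7 did not pass, with a median of 0.26. The 6 metallothioneins of the list, small proteins that bind zinc and copper, were all lower, by 1.88 (MT1X), 1.56 (MT1G), 1.32 (MT1A), 1.31 (MT1E), 1.19 (MT2A) and 0.38 (MT1F), the call of MT1F being lost in 8 of 14 alternatives. MT1X lay at 13.13, 12.56 and 11.98 with HS and at 10.63, 10.59 and 10.82 with HS5 (3.68-fold lower, adjusted p = 1.09e-05). The HS arrays were widely spread for this gene and none overlapped HS5. Metallothioneins are near copies, so a probe may read several of them. NQO1, a quinone reductase that NRF2 is known to induce, lay at 7.89, 7.97 and 8.08 with HS and at 9.94, 9.95 and 10.03 with HS5, 3.99-fold higher. The NADPH-forming enzyme gene ME1 was 3.24-fold higher and the peroxiredoxin gene PRDX1 2.36-fold. TKT, of the pentose phosphate route, was 1.96-fold lower.

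The promoter of MT2A is shown because metallothionein genes are read through repeated metal response elements, and this window holds many copies of the core. It is RefSeq's for GRCh38.p14, 5′ to 3′ on the gene's strand, with capitals marking matches to TGCACNC or TGCGCNC on either strand.
MT2A (chr16:56608334-56608633, plus strand): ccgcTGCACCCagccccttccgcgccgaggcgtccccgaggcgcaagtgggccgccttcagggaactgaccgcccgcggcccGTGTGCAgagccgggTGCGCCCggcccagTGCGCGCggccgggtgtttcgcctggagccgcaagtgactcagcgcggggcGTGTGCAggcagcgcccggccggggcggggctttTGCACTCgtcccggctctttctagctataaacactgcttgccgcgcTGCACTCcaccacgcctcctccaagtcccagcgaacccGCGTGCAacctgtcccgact
This window held 8 matches. The windows of MT1H, which was lower by 0.99, and of MT1X held 8 and 4. At least 2 matches were found in 3 of 3 metallothionein promoters in the table, in 8.59% of all promoters and in 12.4% of those of tested genes.

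In metabolism, cholesterol and fatty acid synthesis genes were higher with HS5 in 18 of 30 measured members, 1 was lower and 11 did not pass, with a median of 0.39. ACAT2, a thiolase that joins acetyl units, lay at 10.67, 10.43 and 10.42 with HS and at 11.55, 11.58 and 11.78 with HS5, 2.19-fold higher. A second probe of ACAT2 gave 0.57 beside 1.13. SC4MOL and DHCR7, of late sterol steps, were 2.34-fold and 2.31-fold higher, and HMGCS1, of an early step, 1.78-fold. SREBF1, which codes for a factor of lipid synthesis, was the lower member, by 0.39. Oxidative phosphorylation genes were higher in 29 of 56, lower in 7 and not called in 20, with a median of 0.28. UQCRB, a subunit of complex III, was higher by 1.26 (2.40-fold), and its second probe gave 0.34 (adjusted p = 0.0294). COX7B was 1.70-fold and NDUFB7 1.73-fold higher, while NDUFS7, ATP5D and COX5A were lower by 0.52, 0.52 and 0.49.

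Of 34 glycolysis and hypoxia genes 11 were lower with HS5, 4 were higher and 19 did not pass, with a median of -0.12. The share called was 44.1%, beside 43.2% over all genes. NDRG1, a gene that low oxygen induces, lay at 8.70, 9.05 and 8.71 with HS and at 6.86, 6.76 and 6.28 with HS5, 4.56-fold lower (log2 difference -2.19, SE 0.14). PFKFB4, which sets a glycolytic activator, was 2.96-fold lower, and the mitophagy receptor gene BNIP3 lay at 13.25, 13.36 and 12.90 with HS and at 11.76, 12.03 and 11.87 with HS5, 2.43-fold lower. ANKRD37, detected on no HS5 array, was at least 1.78-fold lower. None of these genes, picked for a small adjusted p, had overlapping groups. Over the list, 16 of 34 genes did not overlap, beside 51.6% of all genes. P4HA1 was lower by 0.75 by the brightest probe and higher by 0.74 by its other probe, so its direction rests on the probe. The core enzymes GAPDH (0.04), LDHA (0.01) and ENO1 (-0.06) did not pass, and SLC2A3, a glucose transporter, was 1.94-fold higher.

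Of 75 cytosolic ribosomal protein genes 50 did not pass, 21 were lower and 4 were higher, with a median of -0.11. The 33.3% called lay under the 43.2% over all genes. RPL37 and RPL22 were 1.86-fold and 1.82-fold lower, a second probe of RPL37 giving -0.43 (adjusted p = 0.0575), and RPL29 was 1.76-fold higher. RPL36 was 1.60-fold lower by its brightest probe while its other probe gave 0.93, and pseudogene copies make single values uncertain in this family. Heat shock proteins were higher in 13 of 21 and lower in 1, with a median of 0.36. In this list DNAJA1 was 2.14-fold and HSPA1B 2.02-fold higher, and HSP90AB1 was 1.36-fold lower. The list for ATF4 and the unfolded protein response had members higher in 7 of 42 and lower in 10. At 40.5% called, it lay near the share over all genes. CBS, of the transsulfuration route, was 2.37-fold lower, the secreted factor gene STC2 2.04-fold and the C/EBP factor gene CEBPB 1.77-fold lower, and ATF4 (-0.10) and DDIT3 (-0.09) did not pass.

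Of 32 Wnt genes 4 were higher with HS5, 6 were lower and 22 did not pass, with a median of 0.03. With 31.25% called, this list too lay under the 43.2% over all genes. Besides LEF1 and MYC, the corepressor gene TLE1 was called lower, with 2 of 3 HS arrays and no HS5 array detecting it and no fold measurable, and besides JUN, the adhesion gene NRCAM, undetected with HS, was at least 3.07-fold higher. CTNNB1, which codes for beta-catenin, had levels of 8.34, 7.96 and 8.16 with HS and 8.32, 8.09 and 8.40 with HS5 (0.12, adjusted p = 0.475), and another of its probes gave 0.55 (adjusted p = 0.0240). Of 17 Notch genes 8 were lower and 2 were higher, with a median of -0.20. The share called was 58.8%, beside 43.2% over all genes. Among these calls, those of RBPJ and NOTCH2 (lower) and DLL1 (higher) were lost in 9, 4 and 8 of 14 alternatives. The fringe genes code for glycosyltransferases that tune Notch receptors. LFNG and RFNG were lower by 1.37 and 0.92, and the probes of RFNG disagreed, 1 of them giving -0.23 (adjusted p = 0.206). MFNG, undetected with HS5, was at least 1.35-fold lower. HES4, a target, was undetected with HS5 and at least 1.21-fold lower, and NOTCH1 was 1.29-fold lower.

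Adhesion and homing genes were lower in 11 of 26, higher in 5 and not called in 10, with a median of -0.10. The share called was 61.5%, beside 43.2% over all genes. CXCR4, the receptor for the stromal chemokine CXCL12, lay at 9.31, 9.26 and 8.98 with HS and at 8.67, 8.46 and 8.65 with HS5, a difference of -0.59 (adjusted p = 0.00109). The integrin gene ITGA4, which pairs to bind VCAM1 on stroma, was 2.07-fold lower, and the leukocyte integrin genes ITGB2 and ITGAL were lower by 0.72 and 0.58. CXCR3, the receptor for CXCL10, was undetected with HS and at least 1.98-fold higher. CCR7, a lymph node homing receptor, was at least 1.39-fold higher, likewise undetected with HS. CD44 was 1.27-fold lower by its brightest probe, and another probe gave -0.13 (adjusted p = 0.446).

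**Figure D5:**
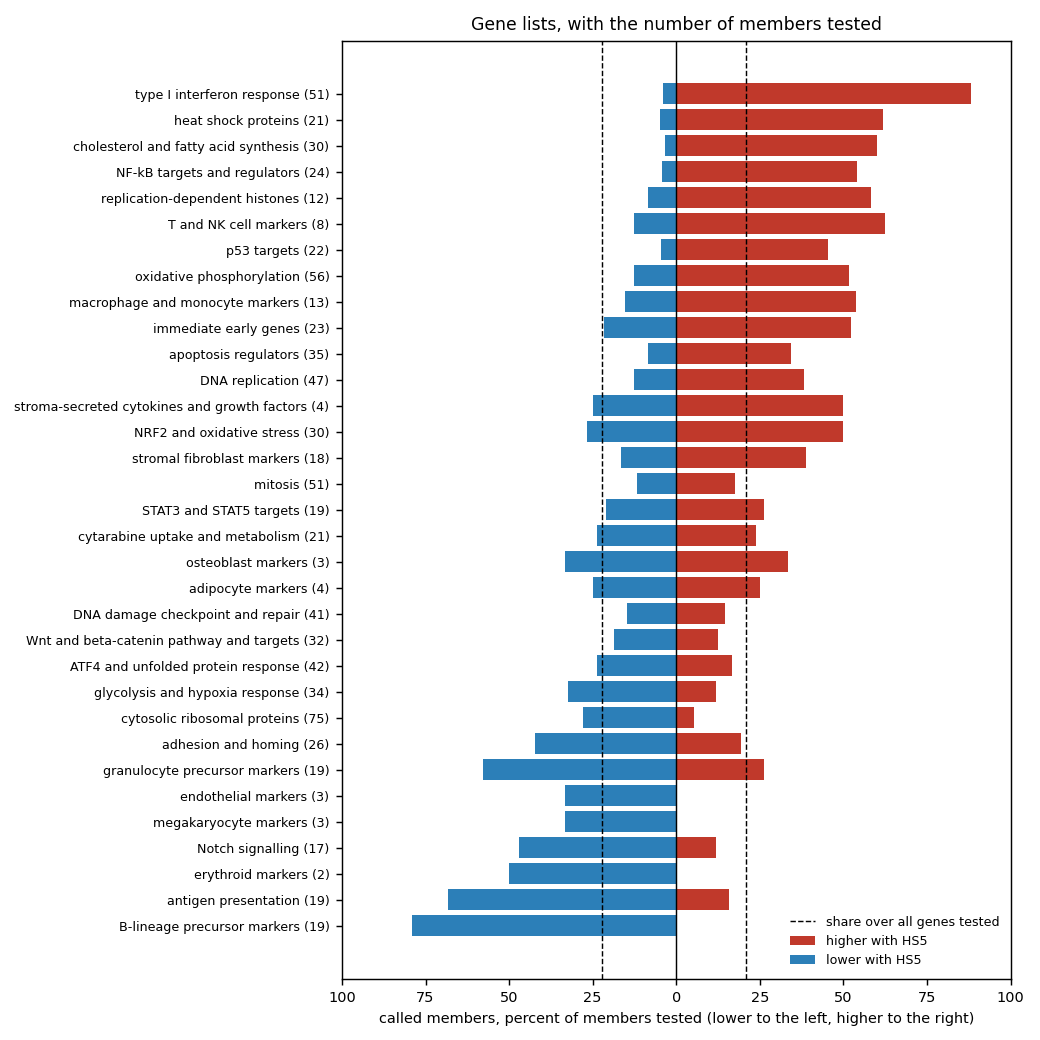
Share of the tested members of each gene list that was called higher with HS5 (to the right) or lower (to the left), in percent of the members tested, with dashed lines at the shares over all genes (20.9% and 22.3%). The interferon list has the largest share of members higher, 45 of 51, and the B-lineage list the largest share lower, 15 of 19.

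The levels of both stromal groups were set beside Ara-C alone in the same fit. These comparisons share arrays with each other, so their values are given side by side and no overlap between them is drawn. Against Ara-C alone, 4699 genes were called with HS (42.1%) and 101 with HS5 (0.905%), of which 59 were higher and 42 lower. Of the 51 interferon genes, 37 were lower and 2 higher with HS than with Ara-C alone, with a median of -0.91. With HS5, 18 of the 51 were higher than with Ara-C alone, with a median of 0.54. IFIT1 was at -2.50 with HS and 0.76 with HS5 against Ara-C alone, and OAS2 at -1.59 and 1.46. Of the B-lineage genes, VPREB3 was at 2.89 with HS and, undetected with HS5, has only a bound there. DNTT was at 1.64 and -0.56. CDKN1A was at -2.25 with HS and 0.18 with HS5 (adjusted p = 0.647), and CSF3R at 1.90 and 0.01. For DNTT, ITGA4 and SLC2A5 the HS5 group was also called lower than Ara-C alone, with adjusted p-values of 0.0231, 0.0360 and 0.0460. BCL3, an NF-kB cofactor that 1 of 3 Ara-C arrays detected, was higher with HS5 than with Ara-C alone by 0.92.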

How the data were processed

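RNA of 12 samples was hybridised to HumanHT-12 v3 beadchips. The deposited scanner tables give, per the file headers, a mean bead intensity and a detection p-value for each of 48800 probes, and showed no normalization between arrays. The values of the table deposited by the authors are on the log2 scale and equal quantile-normalized log2 signals to within 1.67e-04. No centring of probes was seen in it. The submitters' processing notes name R 2.9.2.

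The intensities were corrected and normalized here by limma's neqc (limma 3.58.1, R 4.3.3; offset 16). Probes with a detection p under 0.01 on at least 3 of 12 arrays were kept (14939, of which 449 had no symbol), and the brightest kept probe stood for each of 11166 genes, 2675 of which had several. Symbols that had turned into dates (24) were left out. In all, 90.6% of the symbols matched RefSeq. One mean per group was fitted to all 12 arrays with lmFit and eBayes (8 residual degrees of freedom), with Benjamini-Hochberg adjustment over all genes and a threshold of 0.05. Errors are standard errors of this fit, and a list's median is over its tested members.

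A probe detected on no array of a group has only a bound there: "at least" a fold sets the detected group's mean against, per array, the higher of the probe's own level and the lowest level of any detected probe (5.41 to 5.94). The median raw intensity was 65.4 to 71.7 per array, and the number of arrays limits the precision. Same-numbered HS and HS5 arrays did not deviate together (r of deviations 0.011, -0.011 and -0.046), so the numbers were not treated as pairs. The genes named are the 25 largest differences in each direction among called genes without overlap, up to 6 members of each of 33 lists with the smallest adjusted p, 16 genes chosen for drug response and lineage, and up to 10 that moved in opposite directions against Ara-C alone. Other list members are named to complete the lists, and a few genes are not reported here. The members and lists were chosen with earlier results of these data known. Alternatives tried were the deposited log2 values, a median shift, other detection filters, the 6 arrays alone, a replicate block, the mean of a gene's probes, array weights, a minimum fold of 1.5 and each array left out. The fit was tested on simulated data with known changes.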

Additional observations from a re-analysis of the deposited data

Results flagged for a closer look

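In all, 26 genes lay below Ara-C alone with HS and above Ara-C alone with HS5, or the reverse, by at least 1.5-fold each way, with each difference and the contrast between the stromal groups passing limma's test. Both differences share the Ara-C arrays. The 10 with the largest difference between the stromal groups were all lower with HS and higher with HS5, in every one of the 3 arrays of each. In the order HS5 minus HS, HS minus Ara-C and HS5 minus Ara-C, the log2 differences were 3.84, -2.90 and 0.94 for S100A8, and 2.99, -2.19 and 0.80 for its partner S100A9. The interferon genes gave 3.63, -2.08 and 1.55 (IFI27), 3.26, -2.50 and 0.76 (IFIT1), 3.05, -1.95 and 1.10 (OAS3), 3.05, -1.59 and 1.46 (OAS2) and 2.71, -1.82 and 0.89 (EPSTI1). The DNA sensor gene AIM2 gave 3.47, -2.13 and 1.34, the interleukin 18 receptor gene IL18RAP 3.01, -2.15 and 0.87, and the vitamin B12 binder gene TCN1 2.59, -1.82 and 0.76. S100A8, IFI27 and AIM2 were undetected with HS, so the sizes of their differences from that group are fitted values and not bounds.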

How the results depend on the processing

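Of 198 called genes picked by the naming rule, 195 kept their direction and call in every alternative run gene by gene, and of 427 called list members 333 did. A minimum of 1.5-fold, run as a count, called 118 and 131 of them. MPO lost the call in 10 of them (adjusted p from 0.0501 to 0.143), P4HA1 lost it with the mean of its probes (adjusted p = 0.978), and RPL36 then turned to 0.13, its probes being opposed. Of the other list members named, TAPBP and MX2 lost the call in 9 alternatives each, RELA and MT1F in 8, PSMB9 in 6, and B2M (with the median shift), ATP5D and SREBF1 (with the mean of their probes) and SLC29A2 (without HS5 replicate 3) in 1. Over all genes that minimum left 589 genes called, 315 higher with HS5 and 274 lower, against 4826, 2333 and 2493, since it asks for a larger difference. With the deposited log2 values, which carry no background correction, 187 genes were at least 2-fold higher and 141 lower, against 346 and 294, while 5041 genes were called. A shift to a common median called 4149 genes, 43.1% of them higher with HS5 against 48.3%, with the median of all genes at -0.04. The replicate block, whose numbers do not pair the samples, called 4704 genes, 2272 higher and 2432 lower. Leaving out each array in turn gave 4232 to 4360 calls, 2049 to 2111 higher and 2173 to 2253 lower, with 329 to 359 at least 2-fold higher and 280 to 315 lower. Genes not called turned sign near 0: GATA1 (-0.0426 with the median shift, -0.0323 without HS5 replicate 3), IL1B (0.000701 with the deposited values, and -0.20 to 0.10 with each array left out) and LEP (-0.24 to 0.0568 with each array left out). Over the alternatives other than leaving out an array, the interferon list kept 44 to 46 members higher with HS5, the B-lineage list 14 to 15 lower and the antigen presentation list 12 to 14 lower, and the medians of the endothelial, erythroid, Wnt and adhesion lists, all near 0 or over few genes, turned sign in at least 1 of them. Differences of genes dim in both groups could not be measured, and direction rests on the probe where probes of a gene disagreed. In all, 148 called genes were detected on no HS array and 182 on no HS5 array, so their sizes have at most a bound. A bound could be given for 294 called genes, and for some others, such as TLE1, no fold was measurable.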

Other observations

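Further genes with large differences, picked after their values were seen, included regulators of immune cells and of the cell's skeleton. CD48, a ligand of the NK cell receptor CD244, had a mean level of 7.10 ± 0.06 with HS and 9.67 ± 0.09 with HS5 (SD, n = 3 each), 5.95-fold higher with limma's adjusted p = 3.05e-10. HAVCR2, which codes for the inhibitory receptor TIM-3, was 5.55-fold higher, and IL1RN, the antagonist of the interleukin 1 receptor, was undetected with HS and at least 4.97-fold higher. HDC, which makes histamine, went from 10.03 ± 0.29 to 12.06 ± 0.10, 4.10-fold higher, and the mast cell protease gene CPA3 was undetected with HS and at least 2.94-fold higher. The cyclin gene CCNA1, known from meiosis and from myeloid leukemia, was 6.59-fold higher. FLNC, an actin cross-linker, ANXA2, a membrane-binding annexin, and LMNA, of the nuclear lamina, were 5.67-fold, 5.17-fold and 3.41-fold higher. For each of these genes the HS5 arrays did not overlap the HS arrays, as was so for 51.6% of all genes. Genes picked for large differences would mostly show this, so it is no separate observation.

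On the side of HS, the progenitor antigen gene PROM1 (CD133) had a mean level of 6.84 ± 0.37 and was undetected with HS5, at least 2.14-fold lower there. The adaptor gene LAT2 went from 10.81 ± 0.08 with HS to 8.99 ± 0.12 with HS5, 3.55-fold lower, and RASGRP2, an activator of RAP1, was 3.47-fold lower. FOXO1, a transcription factor that drives recombinase genes in pre-B cells, was 2.59-fold lower with HS5 (log2 difference -1.37, SE 0.13, adjusted p = 2.60e-06). ADA, the adenosine deaminase of lymphoid precursors, was 2.57-fold lower, the focal adhesion kinase gene PTK2 2.71-fold lower and SPRY1, a feedback inhibitor of growth factor signals, 2.70-fold lower. None of these, also picked for their differences, had overlapping arrays, beside 51.6% of all genes without overlap.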
